A study of Mus musculus with 12 samples.

Results

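The effect of MRL24 on cells carrying wild-type PPARγ was measured by comparing 3 arrays of cells exposed to the compound with 3 arrays of untreated cells, 6 of the 12 arrays of the series. The genes compared were the 9154 that passed a filter on low values, of 12393 with a probe set carrying 1 gene symbol. The cells compared were mouse embryonic fibroblasts (MEFs) lacking endogenous PPARγ, into which wild-type PPARγ had been introduced, and which had been differentiated for 6 days. The MRL24 group then received 1 µM MRL24 for 24 h. A further group of the same wild-type cells received 1 µM rosiglitazone for 24 h and serves as the matched-dose comparison, and 3 arrays of cells with an S273A form of the receptor entered only the estimate of the spread. Use of a vehicle for untreated cells, the number of times the receptor was introduced and separate cultures behind replicate arrays are not stated in the labels, so the p-values reflect spread among arrays that may be no more than technical. Precision is limited by the small number of arrays: for a single value, 3 against 3 allows an exact permutation p no smaller than 0.1. Total RNA of a whole culture was measured, in which fewer cells of a type and less RNA per cell cannot be told apart.

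PPARγ is a nuclear receptor that pairs with RXR, binds DNA near its target genes and drives the differentiation of fat cells. Full agonists such as the thiazolidinedione rosiglitazone strongly raise its targets, many of which take up, carry, store or oxidise fatty acids. MRL24 is a synthetic PPARγ ligand known as a weak agonist of these classical targets, and the study used it beside rosiglitazone to separate agonism from a ligand's effect on phosphorylation of the receptor at Ser273.

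Among the 12 arrays, untreated replicate 2 was the most distant. On the leading principal component (24.5% of the variance) it scored -17.25 against -5.57 to 8.41 elsewhere, and the SD of its deviations from its group was 0.181 on the log2 scale against 0.117 to 0.152. Counts for the lists below are therefore also given without it. The ratio of 3′ to 5′ control probe sets of Actb was 1.11, 1.15 and 1.05 in untreated cells and 1.06, 1.08 and 1.05 with MRL24. The labels call the cells adipocytes. Of 12 adipocyte markers, 10 had a usable probe set and 7 passed the filter; Adipoq, Cidec and Lep, which encode adiponectin, a lipid droplet protein and leptin, did not. Adipoq read 37.3, 62.4 and 60.9 intensity units in untreated cells and 46.5, 66.1 and 91.3 with MRL24, and the groups overlapped. Cidec read 7.93, 14.6 and 32.6 and 22.4, 27.4 and 41.5. The summed intensity of the 10 markers was 12941 to 14783 in untreated cells and 19977 to 20173 with MRL24, most of it from Fabp4. The 10 fibroblast markers summed to 87007 to 97166 and 94836 to 98195, and 10 macrophage markers to 3333 to 3775 and 3564 to 3644. Among the macrophage markers, Ptprc, Itgam and Fcgr1 lay below the filter.

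**Figure D1:**
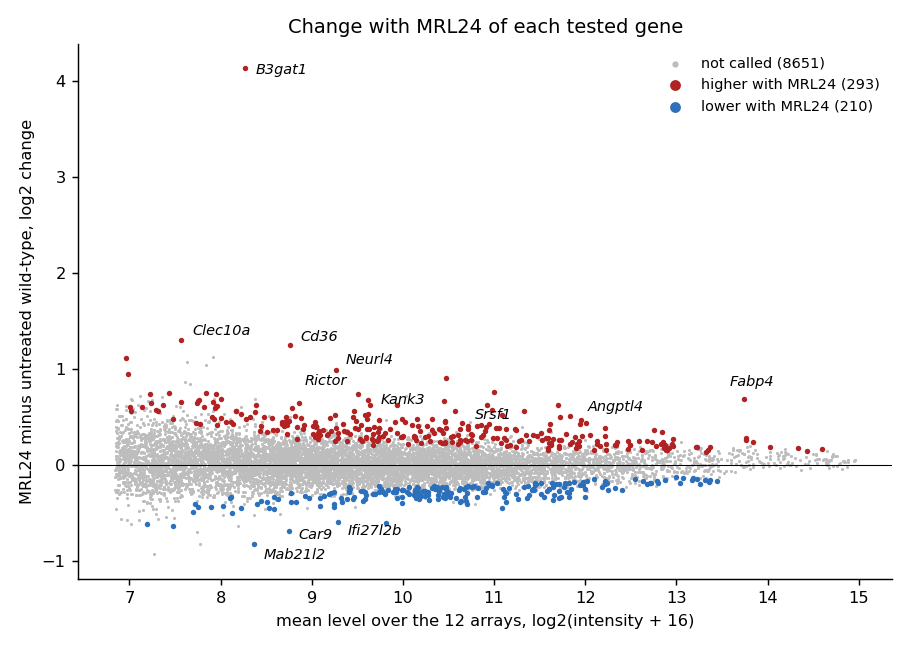
Each point is 1 of the 9154 tested genes, placed by its mean level over the 12 arrays, log2(intensity + 16), and its log2 change with MRL24 against untreated cells. The 293 genes called higher and 210 called lower mostly lie within 1.5-fold of no change, with B3gat1, Clec10a and Cd36 at the top and Mab21l2 and Car9 at the bottom.

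MRL24 altered many genes by small amounts. The call rule was limma's p under 0.05 after Benjamini-Hochberg adjustment over all tested genes, on log2(intensity + 16), which understates the fold of dim genes. On that scale 293 genes (3.2%) were higher and 210 (2.29%) lower, together 503 (5.49%), and groups did not overlap for 29.1% of genes. The median absolute log2 change of the called genes was 0.30. Past 1.5-fold there were 37 higher and 6 lower, and past 2-fold 4 higher and 0 lower. The median change over all tested genes was 0.011. The calls depended on single arrays. Without untreated replicate 2 there were 156 calls (1.7%), of which 145 were among the 503, with 109 higher (1.19%) and 47 lower (0.513%). Without MRL24 replicate 1, 2 or 3 there were 163, 122 and 76 calls, of which the last shared 72 with the 503. Without untreated replicate 1 there were 813 (443 higher and 370 lower), and without untreated replicate 3 there were 697 (375 higher and 322 lower). A fit to the 6 arrays alone gave 51 (0.557%, with 0.437% higher and 0.12% lower), all among the 503. The count of a list in a setting is to be read beside the total of that setting. The split of directions depended on the scaling: after quantile normalization 251 genes were higher (2.74%) and 314 lower (3.43%), and after setting every array to the same median 204 (2.23%) and 484 (5.29%). A core of 61 genes, 46 higher and 15 lower, was called with all arrays and without each 1 of the 12 in turn. These are called the 61-gene core below. Membership concerns only leaving out 1 array: the fit to the 6 arrays, with its 51 calls, did not keep all 61. For other called genes given with an adjusted p, the arrays without which the call is lost are named; called genes named only within a list's count are not followed up in this way.

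**Figure D2:**
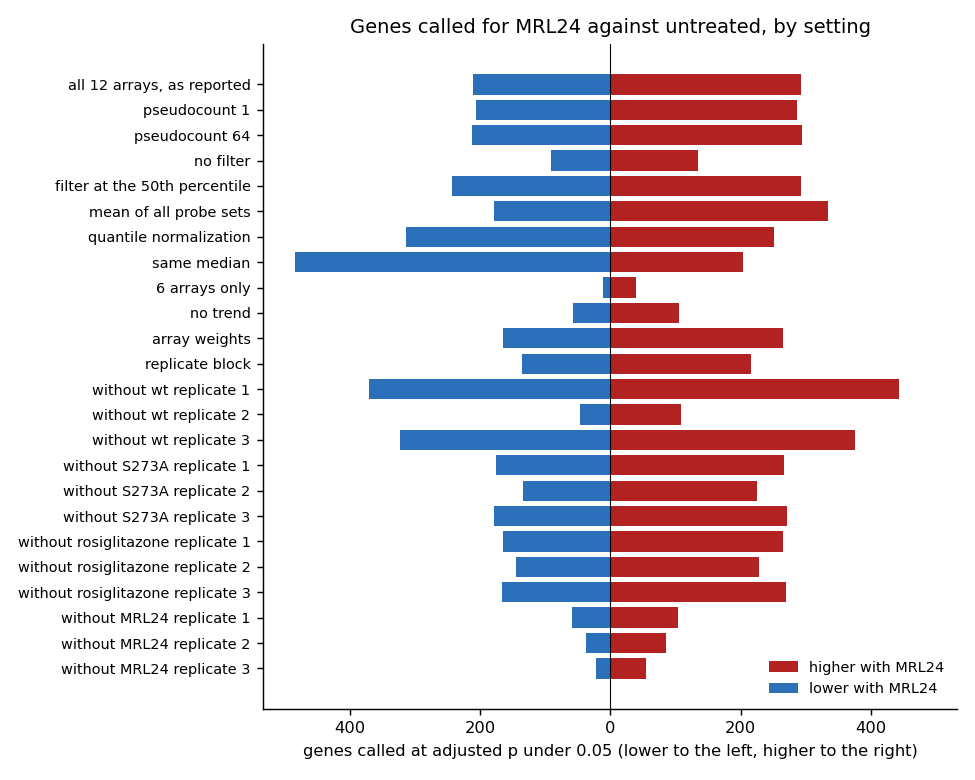
Bars give the number of genes called for MRL24 against untreated cells at an adjusted p under 0.05 in limma, higher to the right and lower to the left, for the fit as reported and each alternative. The total runs from 51 with 6 arrays only to 813 without untreated replicate 1, and the more frequent direction switches from higher to lower under quantile normalization and under the same median.

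Genes of fatty acid uptake and delivery were among the most clearly changed. Where 2 sets of 3 readings follow a gene, the first is untreated cells and the second MRL24, each in the order of replicates 1, 2 and 3, in intensity units. Cd36, a fatty acid transporter at the cell surface, read 177, 150.3 and 164 in the 3 untreated arrays and 405, 406 and 422 with MRL24, a log2 change of 1.25 (SE 0.08, adjusted p = 6.04e-07). The treated arrays lay far above the untreated ones, and the other probe sets of Cd36 changed by 1.32 and 0.51 (below the filter). Fabp4, which carries fatty acids in the cytosol of fat cells, read 9320.2, 10368 and 8838 and 15345, 15535 and 15137, a change of 0.69 (SE 0.05, adjusted p = 8.27e-07). Angptl4, a secreted inhibitor of lipoprotein lipase, read 3062, 3188 and 2933 and 4209, 4166 and 4326 (0.47, SE 0.05, adjusted p = 6.21e-05). In these 3 genes the treated arrays lay close together and far above the untreated ones, and all 3 belong to the 61-gene core. Lpl, the lipoprotein lipase itself, read 1908, 2180.1 and 1893 and 2316, 2317 and 2452, with no overlap but a smaller change of 0.24 (SE 0.06, adjusted p = 0.0267; 0.05 to 0.115 without untreated replicate 1 or 3 or MRL24 replicate 1, 2 or 3). A second Lpl probe set changed by 0.50. Of 24 tested genes of fatty acid uptake, binding and activation, 5 were higher and 1 lower, against 3.2% and 2.29% of all genes, with a median of 0.038; without untreated replicate 2 there were 5 and 0, without untreated replicate 1 there were 5 and 2, and without MRL24 replicate 3 there were 3 and 0, as in the 6-array fit.

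The list of known PPARγ agonist targets showed this response in part. Of 48 listed genes, 39 had a usable probe set, 12 of these lay below the filter and 27 were tested. Among these 27, 7 were higher (Cd36, Fabp4, Acaa1b, Slc2a4, Angptl4, Txnip and Lpl), against 3.2% of all genes, 1 was lower (Vldlr, a lipoprotein receptor) against 2.29%, and 19 did not pass. Their median change was 0.16, beside 0.011 over all genes, with 23 of 27 above 0, beside 53.1% of all genes. The same numbers without untreated replicate 2 were 7 higher, 0 lower and a median of 0.18. Without MRL24 replicate 1, 2 or 3 they were 5, 4 and 5 higher and 0 lower, and in the 6-array fit 4 and 0. On single arrays the list median, set to 0 at the untreated mean, was -0.023, 0.024 and 0.0039 in untreated cells, 0.19, 0.14 and 0.12 with MRL24 and 0.37, 0.43 and 0.39 with rosiglitazone, 3 separate ranges.

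Acaa1b, which acts in peroxisomal fatty acid breakdown, read 118, 144 and 147 in untreated cells and 246, 247 and 193 with MRL24 (0.68, SE 0.13, adjusted p = 0.01; 0.05 without MRL24 replicate 2). Txnip, an inhibitor of thioredoxin that also restrains glucose uptake, read 6036, 5897 and 5857 and 7483, 7447 and 7649 (0.34, SE 0.04, adjusted p = 0.000143) and belongs to the 61-gene core. Both genes separated the groups on every array. Slc2a4, the insulin-responsive glucose transporter, read 189, 155 and 209 and 325, 241 and 239; MRL24 replicate 1 was the highest of these arrays, and the adjusted p of 0.0475 became 0.0527 to 0.187 without untreated replicate 1 or 2, S273A replicate 1, 2 or 3, rosiglitazone replicate 2 or MRL24 replicate 1, 2 or 3. Vldlr read 4292, 4452 and 4552 and 4012, 3999.5 and 3826, and its adjusted p of 0.0324 became 0.0633 to 0.138 without untreated replicate 2 or 3 or MRL24 replicate 1, 2 or 3. Several other targets of known agonists did not pass. Plin2, which coats lipid droplets, read 5575, 5578 and 5599 and 6177, 5968 and 6087 (adjusted p = 0.0897). Lipe, hormone-sensitive lipase, read 386, 352 and 434 and 478, 498 and 462 (adjusted p = 0.0707), and Pdk4, which inhibits pyruvate dehydrogenase, 1395, 1638 and 1374 and 1673, 1799 and 1618 (adjusted p = 0.0707).

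**Figure D3:**
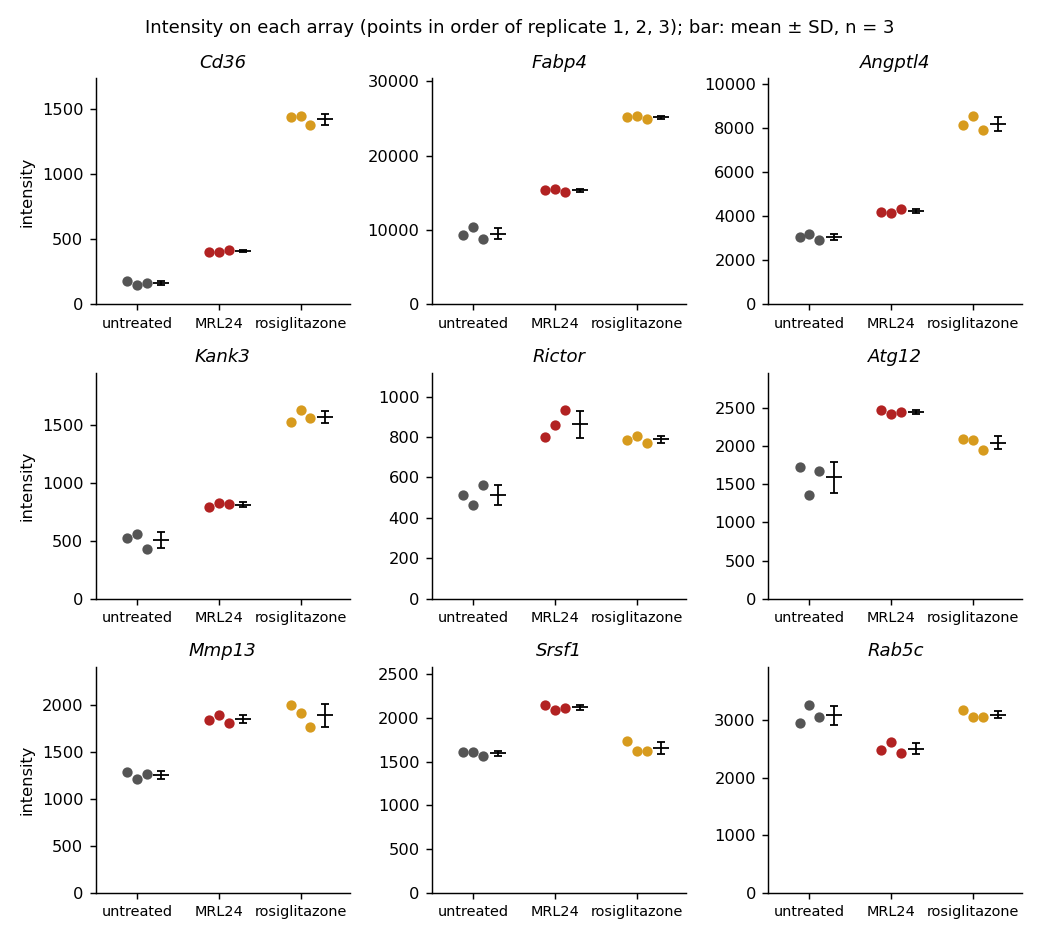
Intensity on each array in untreated cells, with 1 µM MRL24 and with 1 µM rosiglitazone for 9 genes; points are arrays and bars the mean ± SD of 3. For Cd36, Fabp4, Angptl4 and Kank3 the MRL24 arrays lie between the other groups, for Rictor and Mmp13 they lie near the rosiglitazone arrays, and for Srsf1 and Rab5c they lie apart while untreated and rosiglitazone arrays lie together.

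Promoter sequences are shown for 3 of these targets, to place the element that PPARγ and RXR bind beside the measured change. The windows run from 250 bases before to 50 after the annotated start and come from RefSeq (GRCm38.p6), read 5′ to 3′ along the gene. Capitals mark a match with up to 2 mismatches, on either strand, to AGGTCA repeated in the same direction with any 1 base between the copies.
Cd36, chr5:17835847-17836146, minus strand: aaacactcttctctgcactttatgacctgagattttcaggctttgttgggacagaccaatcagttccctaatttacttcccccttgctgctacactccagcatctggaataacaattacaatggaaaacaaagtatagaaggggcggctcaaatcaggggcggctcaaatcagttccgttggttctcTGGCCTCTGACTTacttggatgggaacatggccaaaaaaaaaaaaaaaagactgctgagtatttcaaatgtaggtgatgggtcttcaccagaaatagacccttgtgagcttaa
Plin2, chr4:86670010-86670309, minus strand: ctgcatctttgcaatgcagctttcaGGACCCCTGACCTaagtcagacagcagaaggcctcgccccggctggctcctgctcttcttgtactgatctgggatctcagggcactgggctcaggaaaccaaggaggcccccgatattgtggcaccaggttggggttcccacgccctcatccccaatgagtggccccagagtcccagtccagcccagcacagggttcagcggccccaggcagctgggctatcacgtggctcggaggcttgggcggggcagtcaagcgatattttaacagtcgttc
Acaa1b, chr9:119157044-119157343, minus strand: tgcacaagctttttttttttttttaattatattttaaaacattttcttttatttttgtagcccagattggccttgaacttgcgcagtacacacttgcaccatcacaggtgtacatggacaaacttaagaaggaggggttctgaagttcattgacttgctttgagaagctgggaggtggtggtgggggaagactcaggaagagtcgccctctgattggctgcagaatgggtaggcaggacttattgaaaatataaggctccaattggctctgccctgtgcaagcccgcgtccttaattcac
Cd36 holds a match 63 bases upstream of the start and Plin2 a match 225 bases upstream, each on the strand opposite to the one printed and with 2 mismatches. The Acaa1b window holds no such match. Such a match was held by 3.86% of all 32851 promoters, by 3.46% of 7419 promoters of tested genes, by 7 of 230 promoters (3.04%) of genes higher with MRL24, by 6 of 173 (3.47%) of genes lower and by 2 of 18 (11.1%) of the tested agonist targets, the set from which the printed promoters were picked. A match is a description of the letters and not a site of binding.

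MRL24 moved these genes less than rosiglitazone did at the same dose and time. The difference between the ligands was tested directly, over all genes; 129 genes (1.41%) were higher with rosiglitazone and 100 (1.09%) lower, together 229 (2.5%). Cd36 read 1442, 1448 and 1376 with rosiglitazone, 1.75 above MRL24 on the log2 scale (SE 0.08, adjusted p = 2.73e-09). Fabp4 read 25237, 25308 and 24915 (0.71 above, adjusted p = 3.56e-07) and Angptl4 8146, 8548 and 7907 (0.95 above, adjusted p = 2.73e-09). Every rosiglitazone array of these 3 genes lay above every MRL24 array. Acaa1b differed by 1.63 (adjusted p = 3.09e-06), Lpl by 0.58 (adjusted p = 2.01e-05), Plin2 by 0.49 (adjusted p = 5.57e-06) and Pdk4 by 0.72 (adjusted p = 7.12e-06). Of the 27 tested agonist targets, 12 were higher with rosiglitazone than with MRL24, against 1.41% of all genes, and 0 lower. No difference between the ligands passed for Txnip (0.063, 95% interval -0.015 to 0.14, adjusted p = 0.463) or Slc2a4 (-0.22, -0.51 to 0.075, adjusted p = 0.505).

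Genes that build fatty acids and triglycerides were mostly not called. Of 27 tested, 2 were higher and 0 lower, against 3.2% and 2.29% of all genes, with a median of 0.041; without untreated replicate 2, 1 was higher. Acly, which makes the acetyl-CoA for fatty acid synthesis, read 4349.6, 3568 and 4054 and 5281, 5133 and 5227 (0.39, SE 0.06, adjusted p = 0.00686) and belongs to the 61-gene core. Acaca, the carboxylase of the next step, read 112, 181 and 175 and 198, 263 and 290.1; its adjusted p of 0.046 became 0.0519 to 0.18 without untreated replicate 1 or 2, S273A replicate 2 or 3, rosiglitazone replicate 1, 2 or 3 or MRL24 replicate 2 or 3. Of 13 tested genes of the lipid droplet and of lipolysis, 0 were higher and 1 lower, a share near the 5.49% called over all genes (Hsd17b11, a droplet-associated enzyme, -0.25, adjusted p = 0.0211, 0.0648 to 0.0799 without untreated replicate 2 or MRL24 replicate 1, 2 or 3). At limma's unadjusted p under 0.05, 3 were higher and 2 lower, beside 1212 and 1031 of all 9154 genes. Without untreated replicate 2 limma called 0.

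More genes of mitochondrial fatty acid oxidation were called between the ligands than between MRL24 and untreated cells. Of 28 tested genes, limma called 0 in either direction for MRL24, and the median was 0.061. At an unadjusted p under 0.05, 4 were higher and 3 lower, shares near those of all genes (1212 and 1031 of 9154). Leaving out untreated replicate 2 gave 2 higher. Against MRL24, 11 of the 28 were higher with rosiglitazone and 0 lower, against 1.41% and 1.09% of all genes; without rosiglitazone replicate 2 or 3 this was 6 and 5, and without MRL24 replicate 1, 2 or 3 it was 7, 5 and 5. Hadhb, the beta subunit of the trifunctional protein, read 1399.5, 1405 and 1402 in untreated cells, 1416, 1321 and 1489.6 with MRL24 and 1859.7, 1949 and 1922 with rosiglitazone. Its MRL24 arrays spanned the untreated ones (95% interval of the change -0.11 to 0.12) and lay below all rosiglitazone arrays by 0.44 (adjusted p = 0.000222). Acaa2, a thiolase, differed between the ligands by 0.32 (adjusted p = 0.00628) and Acadvl, the very-long-chain acyl-CoA dehydrogenase, by 0.28 (adjusted p = 0.00542). With MRL24 against untreated cells these genes changed by 0.089 (95% interval -0.034 to 0.21) and 0.094 (-0.014 to 0.20), neither called. Other Acaa2 probe sets above the filter changed by 0.29 and 0.25 with MRL24, and by 0.24 and 0.33 between the ligands.

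The receptor and its partners were not called. Pparg read 941, 978 and 793 and 854, 823 and 861 (-0.089, 95% interval -0.30 to 0.12, adjusted p = 0.627). Where its probes fall relative to the deletion was not analysed here, and these values check no label. Rxra, its dimer partner, read 633, 585 and 704 and 751, 718 and 753; the groups did not overlap, and the adjusted p was 0.0885. Of 25 tested PPARs, RXRs and coregulators limma called 0. At an unadjusted p under 0.05, 5 were higher and 0 lower, beside 1212 and 1031 of all 9154 genes. Without untreated replicate 2 limma also called 0, and the median went from 0.039 to 0.048. The control genes Actb, Hprt and Tbp changed by 0.10, -0.05 and -0.12, and none was called (adjusted p = 0.107, 0.582 and 0.378).

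Among 37 tested transcription factors of adipogenesis, 4 were higher and 0 lower, against 3.2% and 2.29% of all genes, with a median of 0.086. Without untreated replicate 2, 1 was higher, and without MRL24 replicate 1, 2 or 3 there were 2, 2 and 1. The 6-array fit called 0 of the 37. Without untreated replicate 1 or 3, 2 were called lower and 4 and 6 higher. Nr1d1, a repressor within the circadian clock (REV-ERBα), read 1802, 1761 and 2067 and 2296, 2366 and 2666 (0.38, SE 0.06, adjusted p = 0.00701) and is in the 61-gene core. Cebpb, an early factor of fat cell differentiation, read 7672, 6728 and 6948 and 8219.8, 8277 and 8109 (0.21, adjusted p = 0.0206; 0.062 to 0.0794 without untreated replicate 2 or MRL24 replicate 1, 2 or 3). With rosiglitazone it read 7111, 6911 and 7292, near the untreated values and 0.21 below MRL24 (adjusted p = 0.0248; 0.057 to 0.122 without rosiglitazone replicate 1, 2 or 3 or MRL24 replicate 1, 2 or 3). Tcf7l2, a transcription factor of Wnt signalling, changed by 0.31 (adjusted p = 0.0172; 0.0587 to 0.0886 without untreated replicate 2 or MRL24 replicate 3), and its other probe sets by 0.39, 0.031 and 0.34. Klf6 changed by 0.38 (adjusted p = 0.031; 0.068 to 0.124 without untreated replicate 2 or MRL24 replicate 1, 2 or 3). Cebpa, which keeps fat cells differentiated, read 263, 335 and 341 and 376, 329 and 339, and the groups overlapped.

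The study's own list of genes linked to Ser273 was chosen on these samples, so its direction is not independent evidence. Of 17 genes 15 had a usable probe set and 12 were tested; 5 were higher with MRL24 and 0 lower, against 3.2% and 2.29% of all genes, with a median of 0.18, and without untreated replicate 2 the numbers were 4 higher and a median of 0.14. Besides Txnip and Nr1d1 these were Cyp2f2, Cd24a and Peg10; without MRL24 replicate 1 or 3 the number was 3, and in the 6-array fit it was 1. Cyp2f2, a cytochrome P450, read 527, 583 and 506 and 703, 703 and 711 (0.38, SE 0.07, adjusted p = 0.00781) and is in the 61-gene core. Cd24a, a small surface glycoprotein of adipocyte progenitors, read 1387, 1359 and 1339.6 and 1618, 1587 and 1630.4 (0.24, adjusted p = 0.0147; 0.05 to 0.0683 without MRL24 replicate 1, 2 or 3). Peg10, an imprinted gene derived from a retrotransposon, read 80.5, 94 and 91.2 and 159, 123 and 139 (0.58, adjusted p = 0.0275; 0.058 to 0.0981 without untreated replicate 2 or MRL24 replicate 1 or 3). In each of these genes the treated arrays lay above all untreated ones. Every untreated array of Peg10 read below the filter limit of 98.7, so Peg10 passed the filter only through other arrays. Rosiglitazone exceeded MRL24 for Peg10 by 1.01 (adjusted p = 0.000519), while for Cyp2f2 the difference was 0.045 (95% interval -0.10 to 0.19) and for Nr1d1 0.11 (-0.025 to 0.25), neither called.

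Several genes of the 61-gene core outside the lipid lists are described next, chosen after their values were seen. Rictor, the defining subunit of mTOR complex 2, read 515, 462 and 562 and 798, 861 and 932 (0.74, SE 0.09, adjusted p = 0.000461). Atg12, a ubiquitin-like protein that is conjugated during autophagosome formation, read 1729, 1365 and 1677 and 2473, 2423 and 2452 (0.63, SE 0.07, adjusted p = 0.00033). Both rose on every treated array; untreated replicate 2 was the lowest array for each, and without it the adjusted p was 0.0018 and 8.16e-05. The second Atg12 probe set above the filter changed by 0.027. Pde1b, a phosphodiesterase activated by calmodulin, read 1498, 1432 and 1484 and 2037, 1887 and 1935 (0.40, SE 0.05, adjusted p = 0.00033). Kank3, a protein with ankyrin repeats linked to the actin cytoskeleton, read 524, 563 and 432 and 794, 829 and 819.8 (0.68, SE 0.08, adjusted p = 0.000642), and its second probe set changed by 0.74. In both, rosiglitazone was higher still, by 0.41 (adjusted p = 8.85e-05) and 0.94 (adjusted p = 7.12e-06). Gfpt1, the first enzyme of the hexosamine pathway, read 1078, 894 and 1275 and 1612, 1726 and 1784 (0.66, adjusted p = 0.00838), Atf7, a basic leucine zipper transcription factor, 644, 732 and 803 and 1082, 1044 and 1260.2 (0.63, adjusted p = 0.00458). Other core genes that rose were Ids, a lysosomal sulfatase (1.43-fold, adjusted p = 0.00546), the integrin chain Itgb3 (1.47-fold, adjusted p = 0.00916) and Ngb, the haem protein neuroglobin (1.44-fold, adjusted p = 0.0023).

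Of the 15 core genes that fell, 7 are described here, most of them chosen after their values were seen. Bcl2l11, the pro-apoptotic BH3 protein BIM, read 1493, 1524 and 1406 in untreated cells and 1134, 1159 and 1178 with MRL24 (-0.34, SE 0.05, adjusted p = 0.00471). Its 4 other probe sets changed by 0.18, -0.18, -0.13 and 0.04, so they disagree in sign. Spry2, an inhibitor of receptor tyrosine kinase signalling, read 2696, 3260.4 and 2678 and 2218, 2276 and 2206 (-0.36, adjusted p = 0.00781), with 0.20 for a dimmer probe set. Gdnf, a secreted neurotrophic factor, read 561, 578 and 535 and 401, 414 and 455 (-0.39, adjusted p = 0.00993), and Igfbp6, which binds insulin-like growth factor 2, 3595, 3889 and 3603 and 3085, 3046 and 2769 (-0.32, adjusted p = 0.00701). In each of these the highest treated array lay below the lowest untreated one. Cd151, a tetraspanin, fell by 0.40 on the log2 scale (adjusted p = 0.00916), Gadd45gip1, a protein of the mitochondrial ribosome, by 0.38 (adjusted p = 0.00916), and Zfyve19 by 0.44 (adjusted p = 0.00718).

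In a few core genes MRL24 stood apart from both other groups. Srsf1, a splicing factor, read 1609, 1611 and 1562 untreated, 2154, 2092 and 2117 with MRL24 and 1742, 1621 and 1619 with rosiglitazone. It was 0.41 above untreated cells (SE 0.06, adjusted p = 0.0021), and rosiglitazone lay 0.35 below MRL24 (adjusted p = 0.00236); its 5 other probe sets changed with MRL24 by 0.071, 0.30, 0.36, 0.65 and 0.16. Rab5c, a small GTPase of early endosomes, went the other way. It read 2953, 3277 and 3052 untreated, 2477, 2618 and 2431 with MRL24 and 3174, 3067 and 3068 with rosiglitazone, a change of -0.30 with MRL24 (adjusted p = 0.00701) and a difference of 0.31 between the ligands (adjusted p = 0.00258). Both ligand differences kept their call without any 1 array. For other core genes no difference between the ligands was called: it was -0.13 for Rictor (95% interval -0.31 to 0.063), 0.03 for Mmp13 (-0.089 to 0.15), -0.0085 for Spry2 (-0.14 to 0.12) and 0.049 for Gdnf (-0.11 to 0.20). Such intervals do not show that the ligands act alike.

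The largest changes included several genes with a wide spread between arrays. B3gat1, a glucuronyltransferase, read 274, 1 and 173 in untreated cells and 1221, 1783 and 2232 with MRL24, a log2 change of 4.13 (SE 0.98, adjusted p = 0.0265; 0.058 to 0.0994 without untreated replicate 2 or MRL24 replicate 1, 2 or 3). Without untreated replicate 2, which read at the floor of the values, the change was 2.87, and its other probe sets changed by -0.23 (below the filter) and -0.10 (below the filter). With rosiglitazone B3gat1 read 1154, 1603 and 184, also a wide spread. Clec10a, a lectin of macrophages and dendritic cells, read 195, 48.1 and 102 and 328, 219 and 279 (1.30, adjusted p = 0.0408; 0.0514 to 0.169 without untreated replicate 2 or 3, S273A replicate 2, rosiglitazone replicate 2 or MRL24 replicate 1, 2 or 3). Untreated replicate 2 was the lowest array of both genes. Ttbk2, a tau kinase, read 65.7, 38 and 80.2 and 135, 139 and 169 (1.12, adjusted p = 0.00814), and Lcmt1, which methylates protein phosphatase 2A, 1369, 758 and 1242 and 1838, 2064 and 2286 (0.91, adjusted p = 0.00701). Cybb, the catalytic subunit of the phagocyte NADPH oxidase, read 70, 62 and 81.3 and 135, 165 and 155 (0.95, adjusted p = 0.00795). These 3 stayed called without any 1 array, with adjusted p up to 0.0493, 0.042 and 0.0446. Every untreated array of Ttbk2 and of Cybb read below the filter limit of 98.7, so both genes passed the filter only through other arrays. Neurl4 rose by 0.99 (adjusted p = 0.00916; 0.0524 without MRL24 replicate 3) and Rab5b, another endosomal GTPase, by 0.76 (adjusted p = 0.0147; 0.0541 to 0.0666 without MRL24 replicate 2 or 3). Pde4a, a phosphodiesterase of cyclic AMP, rose by 0.74 (adjusted p = 0.0404; 0.0522 to 0.172 without untreated replicate 2 or 3, rosiglitazone replicate 2 or MRL24 replicate 1, 2 or 3).

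At the other end, Mab21l2 read 336, 647 and 482 in untreated cells and 327, 233 and 229.6 with MRL24 (-0.82, SE 0.19, adjusted p = 0.0264; 0.0996 to 0.111 without untreated replicate 2 or MRL24 replicate 2 or 3). Car9, a carbonic anhydrase induced by hypoxia, read 499, 609 and 475 and 381, 329 and 259 (-0.69, adjusted p = 0.0316; 0.0836 to 0.138 without untreated replicate 2 or MRL24 replicate 2 or 3). Untreated replicate 2 was the highest array of both. Qser1 fell by 0.64 (adjusted p = 0.0327; 0.0683 to 0.142 without untreated replicate 2 or MRL24 replicate 1, 2 or 3), while its other probe sets changed by -0.33 (below the filter) and 0.41, and Tubb4a, a beta tubulin, by 0.61 (adjusted p = 0.0427; 0.0523 to 0.157 without untreated replicate 1 or 2, S273A replicate 2, rosiglitazone replicate 1 or 2 or MRL24 replicate 1 or 2). Ifi27l2b, an interferon-inducible gene, read 718, 879 and 817 and 511, 484 and 589 (-0.59, adjusted p = 0.00916), and Scnm1, a factor of minor intron splicing, 327, 324 and 316 and 226, 213 and 232 (-0.50, adjusted p = 0.00988). Both are in the 61-gene core, and untreated replicate 2 was not far from the other untreated arrays for Scnm1. Timm8b, a chaperone of mitochondrial protein import, read 2222, 2974 and 2436 and 1947, 1794 and 1804 (-0.45, adjusted p = 0.0129; 0.0568 to 0.061 without MRL24 replicate 2 or 3). Mrps18c, of the mitochondrial ribosome, read 986, 1445 and 1052 and 814, 718 and 718 (-0.60, adjusted p = 0.0104; 0.0538 without MRL24 replicate 3), and Ndufaf5, an assembly factor of respiratory complex I, 267, 357 and 349.8 and 234, 222 and 237 (-0.45, adjusted p = 0.028; 0.0562 to 0.116 without untreated replicate 2 or 3 or MRL24 replicate 1, 2 or 3).

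Nuclear genes of the respiratory chain and of the mitochondrial ribosome leaned lower with MRL24. This lean was not confined to mitochondrial lists, as the proteasome had a median of -0.091 with 10 of 40 tested genes above 0. It was also not general to them, as the tricarboxylic acid cycle had a median of -0.0069 with 11 of 22 above 0. Of 65 tested subunits of the respiratory chain and ATP synthase, 0 were higher and 8 lower (Ndufa4, Ndufb3, Ndufb10, Uqcrb, Cox5b, Atp5j, Atp5o and Atp5g2), against 3.2% and 2.29% of all genes. There were 11 lower calls after quantile normalization, 21 with the same median on every array and 0 in the 6-array fit. The median was -0.14 and 4 of 65 lay above 0, beside 53.1% of all genes. The median was -0.16 after quantile normalization and -0.18 with the same median on every array. Ndufa4 read 3044, 3661 and 3355 and 2710.4, 2724 and 2499 (-0.34, adjusted p = 0.00838; 0.0518 without MRL24 replicate 3). Uqcrb, of complex III, read 10497, 11556 and 10054 and 9267, 9354 and 9663 (-0.18, adjusted p = 0.0324; 0.0741 to 0.109 without untreated replicate 2 or MRL24 replicate 1, 2 or 3). Of 70 tested mitochondrial ribosomal proteins, 0 were higher and 7 lower (13, 22 and 0 lower under those 3 settings), with the same median of -0.14 and 15 above 0. Mrpl51 read 1759.6, 2022 and 1732 and 1453, 1475 and 1429.5 (-0.33, adjusted p = 0.0219; 0.062 to 0.0886 without untreated replicate 2 or MRL24 replicate 1, 2 or 3), while another of its probe sets above the filter changed by 0.22. In 38 tested proteins of the cytosolic ribosome the median was 0.027, with 0 called by limma. At an unadjusted p under 0.05, 2 were higher and 3 lower, beside 1212 and 1031 of all 9154 genes. Without untreated replicate 2 limma called 0 and the median was 0.009, and after quantile normalization or with the same median 2 were called lower.

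The size of the shifts of the respiratory chain and of the mitochondrial ribosome depended on untreated replicate 2. The median of the respiratory chain list, set to 0 at the untreated mean, was -0.058, 0.14 and -0.078 on untreated replicates 1, 2 and 3, and -0.11, -0.16 and -0.16 with MRL24. Replicate 2 was the high one, and the MRL24 arrays lay below all 3. For the mitochondrial ribosome the values were -0.061, 0.12 and -0.052 and -0.11, -0.16 and -0.16. The list medians without untreated replicate 2 were -0.074 and -0.079, with 1 and 0 genes lower. Without untreated replicate 1 the lower calls were 19 and 19, beside 370 of all 9154 genes. In the same fit 2 respiratory chain genes were called higher, beside 443 of all genes. Without untreated replicate 3 the lower calls were 13 and 14, beside 322 of all genes. Without MRL24 replicate 1, 2 or 3 they were 1, 1 and 0 for the respiratory chain and 2, 0 and 0 for the ribosome; without S273A replicate 2 or rosiglitazone replicate 2 they were 5 in both lists. Against MRL24, rosiglitazone was higher for 4 of the 65 respiratory chain genes and lower for 0, against 1.41% and 1.09% of all genes. Of the 65 differences 64 lay above 0, beside 44.3% of all genes, and this contrast uses untreated arrays only for its spread. The higher calls were 28 without untreated replicate 2, where 243 of all 9154 genes were higher, beside 129 with all arrays. Without untreated replicate 1 they were 7, beside 128 of all genes. They were 2, 1 and 2 without MRL24 replicate 1, 2 or 3, and 1 and 2 without rosiglitazone replicate 2 or 3. Cycs, cytochrome c, read 5712, 7682 and 6056 untreated, 5968, 6156 and 5900 with MRL24 and 8924, 9078 and 9596 with rosiglitazone; it was not called for MRL24 (95% interval -0.26 to 0.062) and differed by 0.61 between the ligands (adjusted p = 0.000188).

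**Figure D4:**
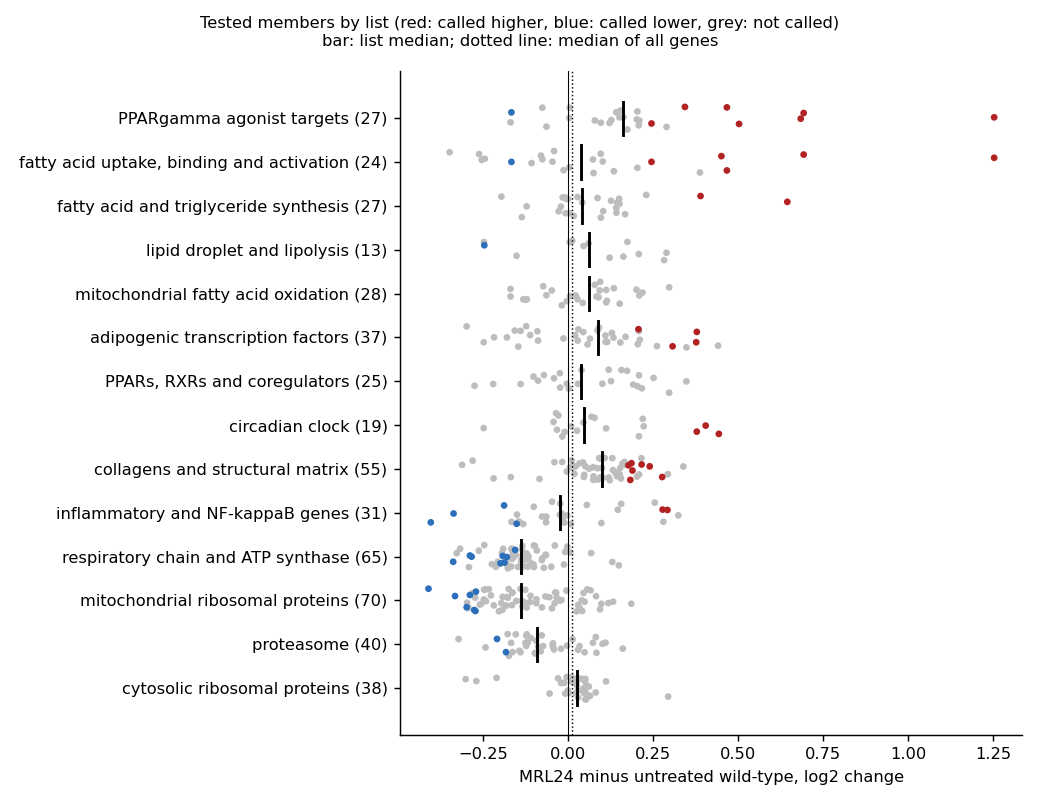
Each point is the log2 change of 1 tested gene with MRL24 against untreated cells, by list, with the number tested in brackets and the list median as a bar. Called genes spread to the right among agonist targets and fatty acid uptake, and to the left in the respiratory chain and the mitochondrial ribosome, whose medians are both -0.14.

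**Figure D5:**
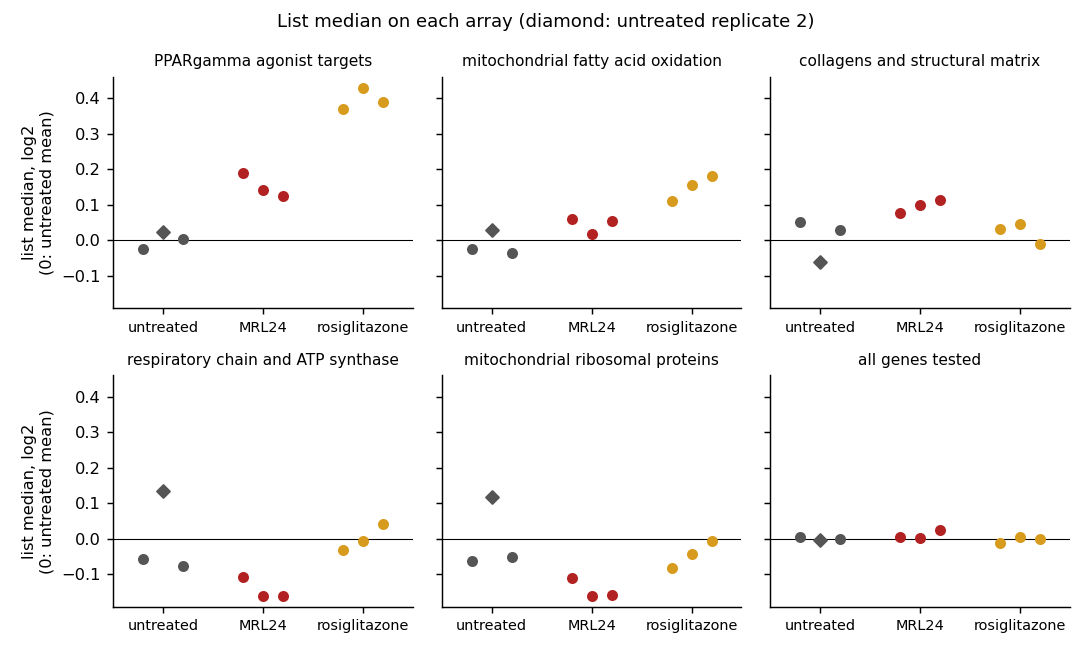
Median over a list of log2(intensity + 16) minus the untreated mean, for each of 3 arrays a group; the diamond is untreated replicate 2. For the agonist targets the 3 groups lie in separate steps, while for the respiratory chain and the mitochondrial ribosome the diamond lies highest of all arrays.

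Collagens and structural matrix genes leaned higher. Of 55 tested, 7 were higher and 0 lower, against 3.2% and 2.29% of all genes, with a median of 0.10. Of the 55, 47 lay above 0, beside 53.1% of all genes. After quantile normalization the median was 0.078 and with the same median on every array 0.055. Without untreated replicate 2, 3 were higher and the median was 0.067. Without MRL24 replicate 1, 2 or 3 the number was 3, 1 and 0, and without untreated replicate 1 it was 12, beside 443 of all 9154 genes. Without untreated replicate 3, 8 were higher and 2 lower, and the 6-array fit called 0. Col4a1, of basement membranes, read 6363, 6073 and 6266 and 7166, 7002 and 7567 (0.22, adjusted p = 0.0137; 0.0741 without MRL24 replicate 3). Ltbp1, which holds latent TGFβ in the matrix, read 3097, 2635 and 2942 and 3469, 3579.8 and 3444 (0.28, adjusted p = 0.0126; 0.0524 to 0.0597 without MRL24 replicate 2 or 3). With rosiglitazone Ltbp1 read 2829.97, 2717 and 2794, near the untreated arrays and 0.33 below MRL24 (adjusted p = 0.00274). Thbs1, the matrix protein thrombospondin 1, read 8509.7, 6845 and 8269.9 untreated, 8888, 9049 and 9249 with MRL24 and 6973, 6852 and 6612 with rosiglitazone. It was not called for MRL24 (adjusted p = 0.0648) and was 0.41 lower with rosiglitazone than with MRL24 (adjusted p = 0.00149). Of the 55 genes 6 were lower and 1 higher with rosiglitazone than with MRL24, against 1.09% and 1.41% of all genes. Without untreated replicate 2 these numbers were 12 and 3, beside 237 lower and 243 higher of all 9154 genes. Without MRL24 or rosiglitazone replicate 3 the lower calls were 2. The collagenase Mmp13, in the 61-gene core, read 1285, 1208 and 1267 and 1847, 1896 and 1814 (0.56, SE 0.06, adjusted p = 7.75e-05), an increase on every array. Tgfbr3, the co-receptor betaglycan, read 1777, 1462 and 1935 untreated, 2334, 2229.7 and 2196 with MRL24 and 1765, 1728 and 1603 with rosiglitazone; it was 0.39 higher with MRL24 (adjusted p = 0.0146; 0.05 to 0.0541 without MRL24 replicate 1, 2 or 3).

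A few inflammatory genes were called, in both directions. Of 31 tested, 2 were higher (Hp and Ptgs2) and 4 lower (Ccl2, Saa3, Cxcl2 and Cxcl5), against 3.2% and 2.29% of all genes, with a median of -0.025; without untreated replicate 2, 0 were higher and 2 lower, and without MRL24 replicate 1, 2 or 3 there were 0, 2 and 0 calls in all; the 6-array fit called 0. Saa3, an acute-phase protein, read 11803, 12236 and 11635 and 10698, 11007 and 10410.4 (-0.15, adjusted p = 0.0205; 0.0622 to 0.0968 without MRL24 replicate 1 or 3). The chemokine Ccl2 read 9193, 10049 and 9394 and 8211, 8486 and 8412 (-0.19, adjusted p = 0.0149; 0.05 to 0.0619 without MRL24 replicate 1, 2 or 3). Cxcl5, a chemokine for neutrophils, read 542, 502 and 501 and 421, 399.8 and 392 (-0.34, adjusted p = 0.0494; 0.0504 to 0.158 without untreated replicate 1, 2 or 3, S273A replicate 1, 2 or 3, rosiglitazone replicate 3 or MRL24 replicate 1, 2 or 3). The treated arrays lay below all untreated ones in these 3 genes, and rosiglitazone lay below MRL24 for Saa3 by 0.22 (adjusted p = 0.00149) and for Cxcl5 by 0.58 (adjusted p = 0.00229). Cxcl2, a related chemokine, read 211, 218 and 211 untreated, 159, 145 and 169 with MRL24 and 216, 221 and 196 with rosiglitazone, so its rosiglitazone arrays lay near the untreated ones. Its change with MRL24 was -0.40 (adjusted p = 0.0338; 0.0693 to 0.131 without untreated replicate 2 or MRL24 replicate 1, 2 or 3), and its difference between the ligands was not called (adjusted p = 0.0576). Haptoglobin (Hp), another acute-phase protein, read 981, 836 and 922 and 1177, 1038 and 1145 (0.29, adjusted p = 0.0232; 0.0897 to 0.0943 without untreated replicate 2 or MRL24 replicate 1 or 3).

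Several of the largest differences between the ligands were in genes not called for MRL24 against untreated cells. Cited1, a transcriptional coregulator, read 380.3, 531 and 358 untreated, 360.1, 384 and 393 with MRL24 and 882, 949 and 1039 with rosiglitazone, 1.30 higher than with MRL24 (SE 0.11, adjusted p = 5.57e-06). Serpinb2, an inhibitor of plasminogen activators, differed by 0.86 (adjusted p = 5.57e-06) and Tpsab1, a mast cell tryptase, by 1.05 (adjusted p = 5.57e-06). For MRL24 against untreated cells the 95% intervals were -0.37 to 0.11 for Cited1, -0.29 to 0.02 for Serpinb2 and 0.087 to 0.47 for Tpsab1, whose adjusted p was 0.0778. In the other direction, Rpl3l, a ribosomal protein of muscle, read 132, 141 and 151 untreated, 222, 137 and 226 with MRL24 and 89.5, 58.5 and 80 with rosiglitazone, 1.18 below MRL24 (adjusted p = 0.0372; 0.0598 to 0.162 without rosiglitazone replicate 1, 2 or 3 or MRL24 replicate 1 or 3). Every rosiglitazone array of Rpl3l read below the filter limit of 98.7, so Rpl3l passed the filter only through other arrays. The stromelysin Mmp10 read 2149.7, 2078 and 2111 untreated, 2301, 2185 and 2200.5 with MRL24 and 1640.3, 1639 and 1579.9 with rosiglitazone, which lay 0.46 below MRL24 (adjusted p = 6.67e-05).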

How the data were processed

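Biotin-labelled total RNA was hybridised to 12 arrays, per the labels' protocols, 3 in each of 4 groups taken from the sample labels. The authors deposited 1 intensity per probe set and array on a linear scale. For these intensities, background correction and normalization are steps not given in the sources used here, and array medians lay between 297 and 315. The medians were 301.9, 296.8 and 304.1 in untreated cells and higher, 308.4, 308.5 and 314.9, with MRL24. Of 22690 probe sets, 64 were controls, 20380 had 1 gene symbol in GEO's platform annotation, 691 had several and 1555 had none; those with several or none were left out. Each of 12393 genes was represented by its probe set with the highest mean. Values were taken to log2(intensity + 16), and genes under the 30th percentile of the mean over all arrays (intensity 98.7) were left out.

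One limma model (limma 3.58.1, R 4.3.3) with a mean per group was fitted to all 12 arrays, which share 1 estimate of the spread, with eBayes and a trend on the mean level; p-values were Benjamini-Hochberg adjusted over the 9154 genes. Tables were handled in Python 3.11.15 with pandas 2.3.3. Alternatives covered the pseudocount, the filter, probe sets, normalization, arrays in the fit, the variance trend, array weights, a replicate block and each array left out. Tested on simulated data for MRL24 against untreated cells (9154 genes, 50 changed at each size), the model called 22 genes at a log2 change of 0.3, 39 at 0.5, 47 at 0.7 and 49 at 1, with 7 false calls. The simulated noise was independent, with the same SD of a gene in every group and no outlying array. It therefore cannot show how often calls on the real arrays are false.

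The genes and lists were chosen with earlier results of these data known. Genes could be named if among the 15 largest called rises or falls, or the 10 largest differences each way between the ligands, with groups that do not overlap. Up to 5 called members a direction of a list, the receptor and the control genes could also be named. Not every gene that met these rules is described, and the choice among them followed no set rule. Genes of the 61-gene core, and list members with no call, were chosen after their values were seen.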

Additional observations from a re-analysis of the deposited data

How the results depend on the processing

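For MRL24 against untreated cells, 503 genes were called with all arrays; there were 225 with no filter on low genes, 51 with 6 arrays only and 162 with no trend in the variance, and leaving out single arrays gave 76 to 813. The fit to 6 arrays has fewer samples and 4 residual degrees of freedom in place of 8. What moved the counts was not tested for any setting. For rosiglitazone against MRL24, 229 became 546 with 6 arrays only, 637 with array weights and 132 with no trend, and 96 to 480 with single arrays left out. Pseudocounts of 1 and 64, a filter at the 50th percentile and the mean of all probe sets kept both counts within 1.5 times. The mean of all probe sets turned the sign of 3 gene results, by adding probe sets that disagree. These were Pdgfra (0.083) and Timp3 (0.078) with MRL24, and Decr1 (-0.023) between the ligands. Timp3 and Decr1 are not described elsewhere, and in these comparisons their brightest probe sets gave -0.18 and 0.29. With the replicate number as a block the counts were 350 and 174. Deviations of same-numbered untreated and MRL24 arrays correlated at -0.078, 0.065 and 0.025, and in no pair of groups did every number exceed 0.1. With 3 arrays a group, these correlations cannot show whether same-numbered arrays were handled together. Probe sets near the background limit what dim genes, such as Adipoq, can show, and B3gat1 varied widely between arrays of a group.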

Other observations

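Of 19 tested genes of the circadian clock, 3 were higher with MRL24 (Clock, Hlf and Nr1d1) and 0 lower, against 3.2% and 2.29% of all genes; without untreated replicate 2 the number was 2, and without MRL24 replicate 3 it was 1. Clock, the activator at the centre of the cycle, read 371, 312 and 304 in untreated cells and 447, 438 and 468 with MRL24 (0.44, adjusted p = 0.0129; 0.0645 without MRL24 replicate 3). In 24 tested genes of the hypoxia response, 4 were higher and 1 lower, against the same shares of all genes. Without untreated replicate 2 this was 1 and 0. Without untreated replicate 1 it was 8 and 1, beside 443 and 370 of all 9154 genes. Without MRL24 replicate 1 or 2 it was 1 and 1, and 1 and 0, with 0 and 0 by limma without MRL24 replicate 3. At an unadjusted p under 0.05 with all arrays it was 11 and 1, beside 1212 and 1031 of all genes. Hif1a, the oxygen-regulated subunit of the hypoxia factor, read 7324, 7204 and 6471 and 8216, 8152 and 8450.01 (0.24, adjusted p = 0.0125; 0.0645 without MRL24 replicate 3), in the direction opposite to Car9.

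Of 41 tested splicing factors, 3 were higher (Srsf1, Hnrnpk and Srsf5) and 4 lower (Scnm1, Snrpd3, Snrpe and Snrpb), beside 3.2% and 2.29% of all genes, and 1 and 1 without untreated replicate 2 and without MRL24 replicate 2 or 3; without MRL24 replicate 1 there were 2 and 2. Snrpd3, a core protein of spliceosomal particles, read 1842, 2319.7 and 1948 and 1680.3, 1569 and 1585 (-0.33, adjusted p = 0.022; 0.0725 to 0.0886 without untreated replicate 2 or MRL24 replicate 2 or 3). Another Snrpd3 probe set above the filter changed by -0.052 and a dimmer probe set below it by -0.36. Other Hnrnpk probe sets, all above the filter, changed by 0.028, -0.028 and -0.10. Among 16 tested progenitor surface markers, Cd24a, F3 and Itgb1 were higher and Pdgfra lower, beside 3.2% and 2.29% of all genes. A second Pdgfra probe set above the filter changed by 0.39, and the mean of both turned the change to 0.083, so its direction is not settled. Without untreated replicate 2 there were 2 and 1, and without MRL24 replicate 1, 2 or 3 there were 1 and 0. Itgb1, the integrin chain shared by collagen and fibronectin receptors, read 6024, 5283 and 6020.1 and 6828, 6846 and 6868 (0.25, adjusted p = 0.00916) and is in the 61-gene core. Of 38 tested interferon-response genes 0 were higher and 2 lower, Ifi27l2b and Bst2, and of 40 proteasome genes 0 and 2, Psma7 and Psmb4, shares near the 5.49% called over all genes; without untreated replicate 2 the lower calls were 1 and 0. The 6-array fit called 0 of the clock, hypoxia, progenitor and proteasome genes, 1 higher and 1 lower of the splicing factors, and 2 lower of the interferon-response genes.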
